A study of Mus musculus with 12 samples.

Results

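Genes of extracellular proteolysis were examined in bone marrow-derived myeloid cells exposed to calcitonin gene-related peptide (CGRP), a neuropeptide of sensory neurons. The 10 genes were Plau, Plaur and Serpinb2 of the plasminogen activator system, the matrix metalloproteinase genes Mmp8, Mmp9, Mmp14, Mmp19 and Mmp25, and the inhibitor genes Timp1 and Timp2. The members were chosen by gene name, with earlier results of these data known. All 10 were found among the 52636 genes of the deposited count tables of both cell types. The question was how the level of each gene with CGRP compared with that in saline (PBS), within neutrophils and within macrophages.

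The series held 12 libraries in 4 groups of 3. All cells came from the bone marrow of C57BL/6 J mice aged 8 to 12 weeks. Neutrophils were separated with the EasySep Mouse Neutrophil Enrichment Kit and monocytes with the EasySep Mouse Monocyte Isolation Kit. Neutrophils were used freshly isolated and kept for 4 h in RPMI with either PBS or 1 nM CGRP. Monocytes were grown for 3 days in DMEM/F12 with M-CSF at 10 ng/ml, which drives monocytes to become macrophages, and then received PBS or 1 nM CGRP for 4 h. They carry the label monocytes/macrophages and are called macrophages here. Cell type, medium and time in culture therefore cannot be told apart in any comparison between the cell types. The labels do not say whether the 3 libraries of a group came from separate animals or cultures, so p-values measure only the spread between these libraries.

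Read counts assigned to genes ranged from 2002559 to 3631989 per library. Levels are given as CPM, reads scaled to a common library size, adjusted by the trimmed mean of M values (TMM) method within each cell type unless another scaling is stated. A count of 3, taken as the floor, was worth 0.826 to 1.498 CPM before that scaling.

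The labelled cell types were checked against marker genes, with CPM scaled over all 12 libraries. The 16 neutrophil markers summed to between 165218 and 246180 CPM in the 6 neutrophil libraries and to between 313 and 454 CPM in the 6 macrophage libraries, with S100a8 the most abundant in each library. The 16 macrophage markers summed to between 73087 and 102342 CPM in the macrophage libraries. In the neutrophil libraries they summed to between 19926 and 30915 CPM, with Lyz2 the most abundant in each. All 16 had counts in every macrophage library, and in every neutrophil library but PBS replicate 1, where 15 did. Of the neutrophil markers, Ly6g was at 0 in 2 macrophage libraries, PBS replicate 1 and CGRP replicate 3. Erythroid markers, led by the globin gene Hbb-bs, summed to 6045 to 7690 CPM in the neutrophil libraries and to 20.7 to 29.8 CPM in the macrophage libraries.

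Markers of the other cell types that marrow could bring along were also measured. In neutrophil libraries they summed to 1497 to 1844 CPM for eosinophils and basophils (led by Prss34), 371 to 454 CPM for lymphocytes (Jchain), 128 to 195 CPM for platelets (Pf4), 80.1 to 102 CPM for stroma and endothelium (Col1a2) and 48.3 to 53.4 CPM for dendritic cells (Bst2). Only Tubb1, of the platelet list, was at 0 in all 6 neutrophil libraries. In macrophage libraries the sums were 631 to 978 CPM for platelets, nearly all of it Pf4, and 161 to 206 CPM for dendritic cells, mostly Bst2. They were 40.5 to 83.5 CPM for stroma and endothelium, 37.0 to 51.0 CPM for lymphocytes (Cd79b) and 20.1 to 26.2 CPM for eosinophils and basophils. The genes Cd3e, Cd3g, Cd79a, Ms4a1, Ncr1, Dcn, Lum, Pdgfra, Epx, Prg3, Gp6, Tubb1, Xcr1 and Itgae were at 0 in all 6 macrophage libraries. With CGRP, Lyz2 fell by 0.39 on the log2 scale in neutrophils (limma-voom adjusted p = 0.0296), and Apoe rose by 0.46 (limma-voom adjusted p = 0.0263) and Cd4 by 1.68 (limma-voom adjusted p = 0.0394) in macrophages. In edgeR neither Lyz2 (adjusted p = 0.158) nor Apoe (adjusted p = 0.0732) passed, and in DESeq2 Cd4 did not (adjusted p = 0.0817). No other gene of the marker lists passed in any of these tools.

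Plasminogen is turned into the protease plasmin by activators, of which urokinase (Plau) works at the surface of migrating cells while bound to its receptor (Plaur). Plasmin dissolves fibrin and can activate some matrix metalloproteinases (MMPs). MMPs are zinc enzymes that cut collagens and other matrix proteins, and tissue inhibitors of metalloproteinases (TIMPs) block them. In wounds, neutrophils deliver stored MMPs from granules, and macrophages make MMPs and urokinase as they clear and rebuild matrix.

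The coding sequence of the zinc-binding site is shown for the 5 MMP genes, because it codes for the site that holds the zinc of these enzymes. Capitals mark the codons of the histidines that hold the zinc. The search pattern required these histidines, the glutamate right after the first and the glycine between the last pair. The sequences were read 5′ to 3′ on the coding strand from GENCODE M21 transcripts on GRCm38.
Mmp8: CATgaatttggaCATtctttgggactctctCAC
Mmp9: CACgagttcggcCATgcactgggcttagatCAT
Mmp14: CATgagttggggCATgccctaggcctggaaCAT
Mmp19: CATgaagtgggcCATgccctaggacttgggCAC
Mmp25: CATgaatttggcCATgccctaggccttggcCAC

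Across these 33 bases, Mmp19 and Mmp25 shared 29, the highest number among the 10 pairs, and Mmp8 shared 20 with Mmp9 and with Mmp14, the lowest. The search pattern fixes part of each stretch, so these numbers do not show how closely the genes are related. The site lay in exon 5 of Mmp8 (chr9:7563086-7563118), Mmp14 (chr14:54437627-54437659), Mmp19 (chr10:128795673-128795705) and Mmp25 (chr17:23632843-23632875, minus strand), and in exon 8 of Mmp9 (chr2:164951133-164951165). The pattern occurred in 69 of 21877 protein-coding genes (0.315%). For Plau, which is a serine protease, the corresponding active-site stretch lay in exon 11 (chr14:20842274-20842291), and capitals mark the codon of the catalytic serine.
Plau: ggcgatTCTggaggaccg

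Plau fell in CGRP-treated macrophages. The gene (ENSMUSG00000021822, chr14:20836660-20843385, plus strand) stood at 17.8, 17.0 and 27.8 CPM in the PBS macrophages and at 1.28, 0.750 and 4.06 CPM in the CGRP macrophages. All 3 CGRP libraries lay below all 3 PBS libraries, and CGRP replicate 2 was the lowest. These levels came from 193 reads in the PBS group and 14 in the CGRP group, so the CGRP level is near the floor. The mean went from 20.8 ± 6.02 to 2.03 ± 1.78 CPM (SD, n = 3 libraries each), or -3.57 on the log2 scale (SE 0.52, limma-voom adjusted p = 0.000311). Among the 373 genes that fell in macrophages, Plau ranked 4 by the size of its change.

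In neutrophils Plau was low in every library. It was represented by 18, 12 and 12 reads with PBS and 15, 13 and 7 with CGRP, which overlapped. Means were 4.49 ± 1.02 and 3.89 ± 0.855 CPM (SD, n = 3), and the log2 fold change of -0.17 had a 95% interval of -0.92 to 0.58 (limma-voom adjusted p = 0.905).

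**Figure D1:**
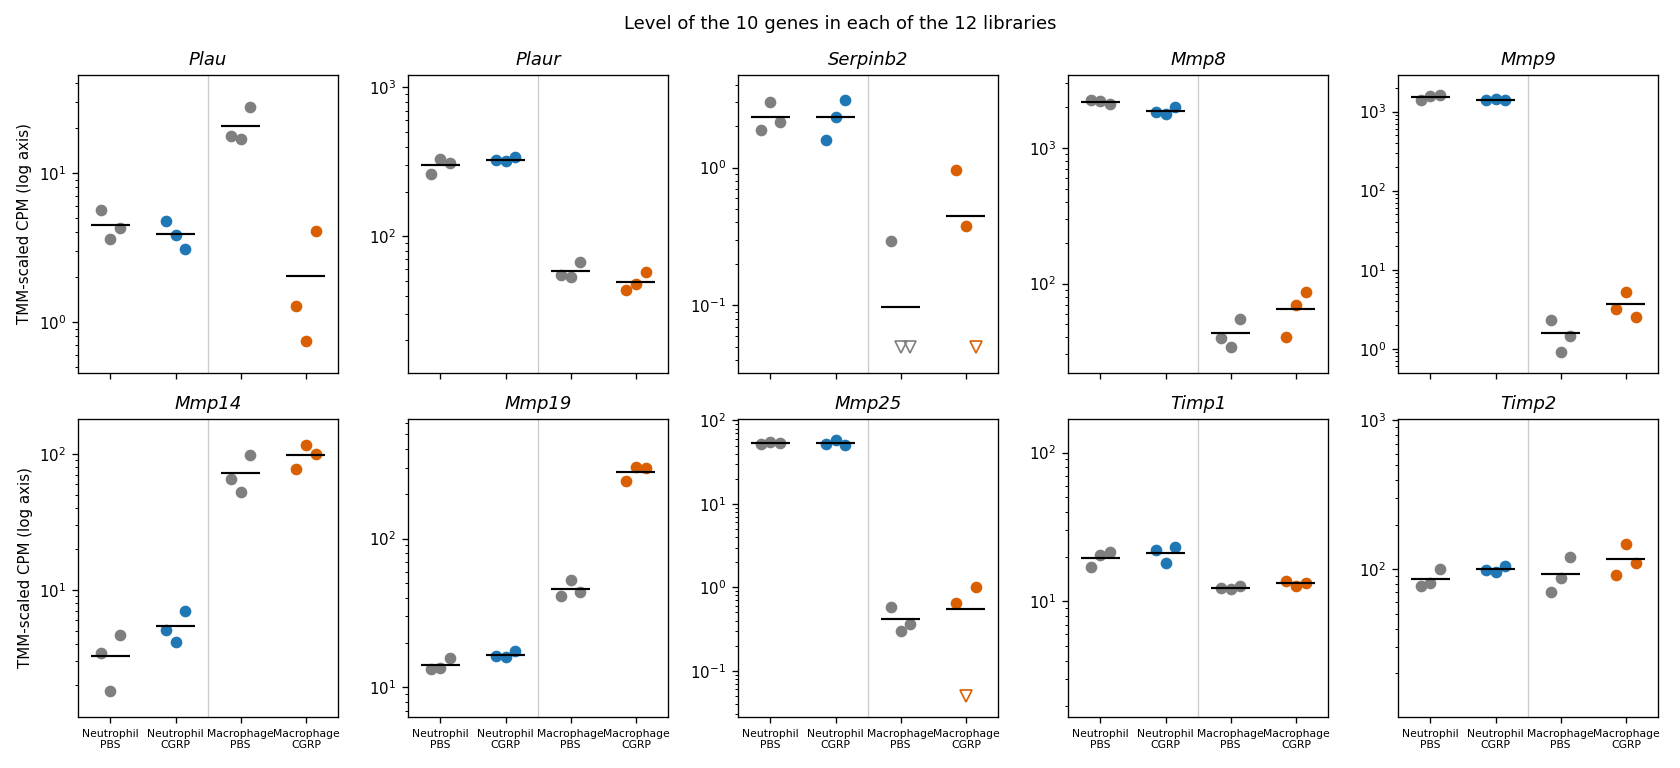
Level of each of the 10 genes in the 12 libraries, in TMM-scaled CPM on log axes whose ranges differ between panels, scaled within each cell type. Each point is 1 library, bars are group means and open triangles at the foot mark libraries with 0 counts; the Plau points of CGRP macrophages lie below and the Mmp19 points above those of PBS macrophages.

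The urokinase receptor gene Plaur (ENSMUSG00000046223, chr7:24462484-24475968, plus strand) did not follow Plau past the test. In macrophages it stood at 55.0, 53.6 and 67.2 CPM with PBS and at 43.6, 48.0 and 57.4 CPM with CGRP. The groups overlapped, and the log2 fold change of -0.25 (95% interval -0.60 to 0.10) did not pass (limma-voom adjusted p = 0.450). In neutrophils it stood at 261, 332 and 312 CPM with PBS and at 323, 321 and 339 CPM with CGRP, again overlapping. That difference was 0.12 on the log2 scale (95% interval -0.07 to 0.31, limma-voom adjusted p = 0.641).

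Serpinb2 (ENSMUSG00000062345, chr1:107511423-107535478, plus strand) encodes plasminogen activator inhibitor 2. It was too low to be tested in either cell type. Neutrophils gave 6, 10 and 6 reads with PBS and 5, 8 and 7 with CGRP, and macrophages gave 1, 0 and 0 with PBS and 3, 1 and 0 with CGRP. At this depth no difference with CGRP was detectable. Serpinb10 overlaps it on the same strand and contains 24.8% of the 31-base sequences in its last 500 transcript bases, so reads of the pair may have been divided uncertainly.

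Mmp19 rose in CGRP-treated macrophages. This gene (ENSMUSG00000025355, chr10:128790910-128800824, plus strand) encodes a secreted MMP that cuts basement membrane proteins. It stood at 41.1, 52.4 and 43.9 CPM with PBS and at 243, 301 and 296 CPM with CGRP. The lowest CGRP library was far above the highest PBS library, and the libraries within each group lay close together. The mean went from 45.8 ± 5.92 to 280 ± 32.1 CPM (SD, n = 3), or 2.61 on the log2 scale (SE 0.15, limma-voom adjusted p = 2.00e-08). Its p-value ranked 7 among the 9393 genes tested, and its size ranked 22 among the 325 genes that rose.

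Tmem198b, on the opposite strand, overlaps Mmp19 by 789 bases. Its reads in macrophages numbered 41, 18 and 35 with PBS and 68, 59 and 44 with CGRP, and it rose by 1.23 on the log2 scale (limma-voom adjusted p = 0.0140). The strand setting of the counting is not given in the sources used here, and without strand the reads of the overlap cannot be told apart. Mmp19 held 757, 803 and 582 reads in the same CGRP libraries, many times those of the whole of Tmem198b. The antisense gene Gm47093, which spans Mmp19, had 0 reads in all 12 libraries.

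In neutrophils, Mmp19 stood at 13.4, 13.5 and 15.7 CPM with PBS and at 16.2, 16.1 and 17.6 CPM with CGRP. The CGRP libraries were all above the PBS libraries, as was the case, in this direction, for 8.96% of the 9819 genes tested there. The difference of 0.23 on the log2 scale (95% interval -0.18 to 0.64) did not pass (limma-voom adjusted p = 0.698).

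Mmp14 and Mmp8 had higher means in CGRP macrophages without passing the test. Mmp14 (ENSMUSG00000000957, chr14:54431612-54445364, plus strand), a membrane-anchored collagenase that activates other MMPs, stood at 64.6, 52.7 and 98.3 CPM with PBS and at 77.0, 117 and 99.1 CPM with CGRP. PBS replicate 3 reached the CGRP range, so the groups overlapped. The log2 fold change was 0.47 (95% interval 0.03 to 0.92, limma-voom adjusted p = 0.214). It passed without PBS replicate 3 (0.71, limma-voom adjusted p = 0.0269) and, narrowly, without CGRP replicate 1 (0.65, limma-voom adjusted p = 0.0494). With all 6 libraries it passed with quality weights (0.63, limma-voom adjusted p = 0.0151), where 1406 of 9393 genes passed. Mmp14 thus passed in 1 of 9 other settings and in 2 of 6 fits with 1 library left out. Among those 6 the limma-voom adjusted p ran up to 0.597.

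Mmp8 (ENSMUSG00000005800, chr9:7558456-7568485, plus strand), the neutrophil collagenase, stood at 39.9, 33.9 and 55.2 CPM in PBS macrophages and at 40.1, 69.0 and 86.9 CPM in CGRP macrophages. CGRP replicate 1 lay within the PBS range, while the other CGRP libraries lay above it. The log2 fold change was 0.54 (95% interval 0.01 to 1.06, limma-voom adjusted p = 0.239). It passed without CGRP replicate 1 (0.88, limma-voom adjusted p = 0.00626). It also passed with all 6 libraries in the fit with quality weights (0.71, limma-voom adjusted p = 0.0180) and in that with the replicate block (0.57, limma-voom adjusted p = 0.0354), so the call turned on the model as well as on that library. Over all genes, 1406 passed with quality weights and 905 with the replicate block, against 698 without either. Mmp8 thus passed in 2 of 9 other settings and in 1 of 6 fits with 1 library left out. Among those 6 the limma-voom adjusted p ran up to 0.600. The 9 neutrophil markers that could be tested in macrophages, Mmp8 among them, all had positive log2 fold changes, with a median of 0.38. Other lists lay on the same side in these libraries, with 15 of 16 macrophage markers (median 0.21), 3 of 3 lymphocyte, 3 of 3 stromal and endothelial, 2 of 2 platelet and 2 of 2 dendritic cell markers positive, while eosinophil and basophil markers gave 2 of 4 and erythroid markers 2 of 3. None of the 9 passed in limma-voom, edgeR or DESeq2, and 2 had an unadjusted p under 0.05. The summed neutrophil markers were 313 to 407 CPM in the PBS and 433 to 454 CPM in the CGRP macrophages, and their part in the Mmp8 values was not tested.

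Mmp9 (ENSMUSG00000017737, chr2:164940780-164955850, plus strand), a gelatinase stored in neutrophil granules, was too low in macrophages to be tested. It had 8, 3 and 4 reads there with PBS and 10, 14 and 5 with CGRP, or 2.33, 0.909 and 1.46 against 3.21, 5.25 and 2.54 CPM. The CGRP levels were all above the PBS levels, but 15 and 29 reads in all lie behind them. With no filter on low counts the log2 fold change was 1.20 (limma-voom adjusted p = 0.299). Mmp25 (ENSMUSG00000023903, chr17:23628311-23645277, minus strand), a membrane-anchored MMP of neutrophils, had 2, 1 and 1 reads with PBS and 2, 0 and 2 with CGRP in macrophages, and a difference was not detectable at this depth.

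The inhibitors did not pass in macrophages by the test used here. Timp1 (ENSMUSG00000001131, chrX:20870166-20874735, plus strand) stood at 12.2, 12.1 and 12.8 CPM with PBS and at 13.8, 12.7 and 13.2 CPM with CGRP. These ranges overlapped, and the log2 fold change was 0.11 (95% interval -0.39 to 0.60, limma-voom adjusted p = 0.859). Syn1, which covers Timp1 on the opposite strand, had 3 to 16 reads per library. Timp2 (ENSMUSG00000017466, chr11:118301069-118355740, minus strand), which also takes part in the activation of the MMP-2 proenzyme by MMP-14, stood at 70.5, 87.3 and 121 CPM with PBS and at 91.5, 148 and 110 CPM with CGRP. Its groups overlapped as well, with a log2 fold change of 0.34 (95% interval -0.09 to 0.77, limma-voom adjusted p = 0.386). With quality weights, where 1406 of 9393 genes passed against 698 without them, Timp2 passed, at 0.61 (limma-voom adjusted p = 0.0234). This was 1 of 9 other settings, and Timp2 passed in 0 of 6 fits with 1 library left out.

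Stromal cells also express Mmp14 and Timp2. The summed stromal and endothelial markers stood at 40.5, 46.2 and 70.1 CPM in the PBS macrophages and at 47.6, 64.6 and 83.5 CPM in the CGRP macrophages. Among the PBS libraries replicate 3 was the highest for these markers and for Mmp14 and Timp2. Among the CGRP libraries the markers were highest in replicate 3, whereas Mmp14 and Timp2 were highest in replicate 2. Of the 12 genes, 7 to 9 had counts in each macrophage library, with Col1a2 the most abundant in each. Dcn, Lum and Pdgfra were at 0 in all of them. The cells were grown from monocytes separated with a monocyte isolation kit, and the part of stromal RNA in these values was not tested.

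In macrophages, then, 2 of the 7 members tested passed, where 7.43% of all genes tested passed. The members were chosen with earlier results of these data known, so their counts are descriptions and no test of the set. The single rise and the single fall stand beside 3.46% of all genes that rose and 3.97% that fell. The median log2 fold change of the 7 was 0.34, against 0.00 for all genes. The CGRP and PBS libraries did not overlap for 2 of the 7, Plau and Mmp19, as was the case for 24.1% of all genes tested.

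In neutrophils, 0 of the 9 members tested passed in limma-voom, where 2.53% of all genes tested passed. None passed in edgeR or DESeq2 either, although DESeq2 gave no adjusted p for Plau and Mmp14, and 1 of them, Mmp8, had an unadjusted p under 0.05 in limma-voom. The median log2 fold change of the 9 was 0.10, against 0.00 for all genes. The groups did not overlap for 2 of the 9, Mmp8 and Mmp19, where this held for 17.8% of all genes tested.

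Mmp8 was abundant in the neutrophil libraries. It stood at 2255, 2243 and 2099.9 CPM with PBS and at 1856, 1798 and 2026 CPM with CGRP. Every CGRP library lay below every PBS library, but the step was small, and 8.83% of all genes tested showed this order. The log2 fold change of -0.22 (95% interval -0.38 to -0.06) did not pass (limma-voom adjusted p = 0.178). With no filter on low counts, the same fit gave -0.24 (limma-voom adjusted p = 0.000168). Of the 16 neutrophil markers, Mmp8 and Mmp9 among them, 13 had a negative log2 fold change in these libraries, with a median of -0.14. The values ran from -0.42 for Ly6g to 0.18 for Cxcr2, the highest of the 3 positive ones. None of the 16 passed in limma-voom, edgeR or DESeq2, and 4 had an unadjusted p under 0.05 in limma-voom. Their part in the Mmp8 value was not tested.

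Mmp9 stood at 1386, 1592 and 1604 CPM in PBS neutrophils and at 1379, 1434 and 1398 CPM in CGRP neutrophils. PBS replicate 1 lay within the range of the CGRP libraries, and the log2 fold change was -0.12 (95% interval -0.28 to 0.04, limma-voom adjusted p = 0.589). Mmp25 varied little, with 51.7, 55.8 and 53.8 CPM against 52.9, 58.4 and 51.3 CPM. Its log2 fold change was 0.02 (95% interval -0.23 to 0.27, limma-voom adjusted p = 0.978). For these granule and membrane MMPs of neutrophils, the intervals therefore hold no change above 1.5-fold in either direction.

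Mmp14 was scarce in neutrophils, at 11, 6 and 13 reads with PBS and 16, 14 and 16 with CGRP. These correspond to 3.43, 1.80 and 4.63 CPM against 5.10, 4.11 and 7.02 CPM, which overlap. The wide interval of its log2 fold change (0.74, 95% interval -0.09 to 1.57, limma-voom adjusted p = 0.462) goes with these few reads. Timp1 ranged from 17.1 to 21.4 CPM with PBS and from 18.2 to 23.3 CPM with CGRP, and Timp2 from 77.3 to 101 and from 95.4 to 105 CPM. Their log2 fold changes were 0.10 (limma-voom adjusted p = 0.885) and 0.22 (limma-voom adjusted p = 0.439).

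**Figure D2:**
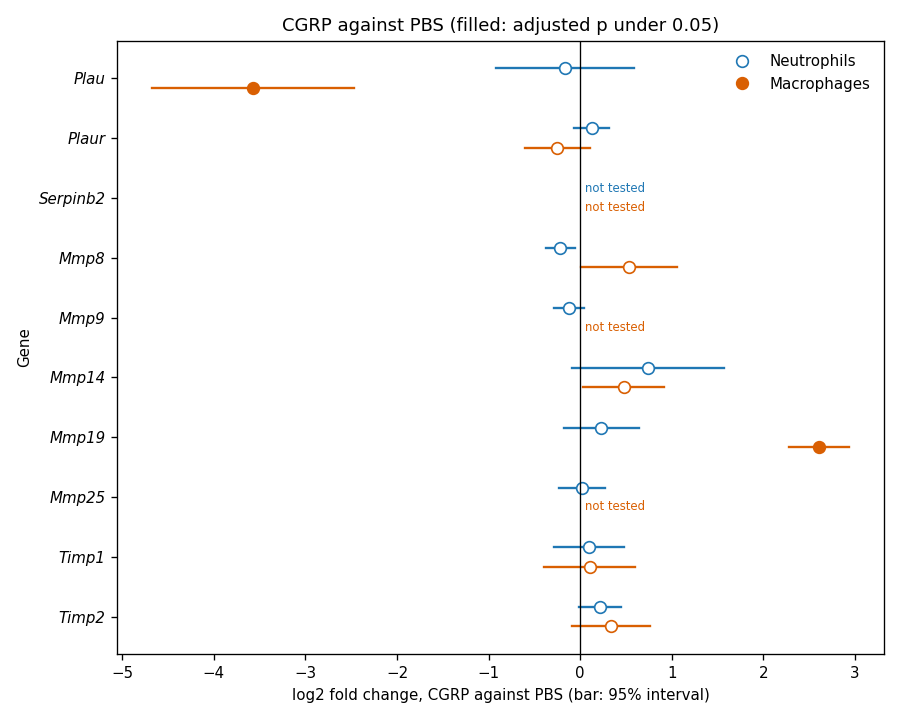
Log2 fold change with CGRP against PBS (horizontal axis) for each of the 10 genes (vertical axis) in neutrophils (blue) and macrophages (orange), 3 libraries per group. Bars are 95% intervals of the limma-voom fit and filled points passed at an adjusted p under 0.05; only the macrophage values of Plau (-3.57) and Mmp19 (2.61) are filled.

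Whether the response to CGRP differed between the cell types was tested in a fit of all 12 libraries. Of the 7 members tested within both cell types, 2 passed, where 2.36% of all genes did, 1.21% with a higher and 1.15% with a lower change in macrophages. Mmp9 and Mmp25, which entered this fit only through their neutrophil reads, did not pass. The change of Plau was lower in macrophages than in neutrophils by a log2 value of -3.39 (SE 0.64, limma-voom adjusted p = 0.00304). The change of Mmp19 was higher in macrophages by 2.39 (SE 0.26, limma-voom adjusted p = 3.86e-06). These were the same 2 genes that passed within macrophages.

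For the other 5 of these members the difference did not pass, which does not show that the cell types responded alike. It was 0.76 for Mmp8 (SE 0.25, limma-voom adjusted p = 0.137), with a negative change in neutrophils and a positive change in macrophages. The Mmp8 difference passed without macrophage CGRP replicate 1 (1.11, limma-voom adjusted p = 0.00171) and without macrophage PBS replicate 3 (0.93, limma-voom adjusted p = 0.0477). With all 12 libraries it passed with quality weights (0.95, limma-voom adjusted p = 0.00554) and with the replicate block (0.80, limma-voom adjusted p = 0.0308). Over all genes, 520 differences passed with quality weights and 288 with the replicate block, against 252 without either. The Mmp8 difference thus passed in 2 of 8 other settings and in 2 of 12 fits with 1 library left out.

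The PBS libraries showed how the genes were divided between the cell types before any CGRP. Here CPM were scaled over all 12 libraries. Of the 7 members tested within both cell types, 6 differed, 3 of them higher and 3 lower in neutrophils. Of all genes 67.9% did, 35.4% higher and 32.5% lower, so a difference between these cells was common. Mmp9 and Mmp25 were too low to be tested within macrophages and entered this fit only through the neutrophils, where they are high, so they are left out of the count and given as ratios of reads. In these bulk libraries, fewer cells of a type and less RNA per cell cannot be told apart.

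Higher in neutrophils were Mmp8, Plaur and Timp1. Mmp9 had 14262 reads in the PBS neutrophils and 15 in the PBS macrophages, a ratio of 925 per library total (95% exact Clopper-Pearson interval 561 to 1654, counting error only). Mmp25 had 503 reads in the PBS neutrophils and 4 in the PBS macrophages, a ratio of 122 per library total (95% exact Clopper-Pearson interval 47.5 to 451, counting error only). Mmp8 averaged 2237 ± 97.8 CPM in PBS neutrophils and 42.4 ± 10.7 CPM in PBS macrophages, a log2 difference of 5.76 (SE 0.18, limma-voom adjusted p = 8.32e-18).

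Plaur was 2.41 higher on the log2 scale in neutrophils (307 ± 38.1 against 57.8 ± 7.26 CPM, limma-voom adjusted p = 1.46e-13). Timp1 showed a smaller difference of 0.70 (20.0 ± 2.26 against 12.2 ± 0.328 CPM, limma-voom adjusted p = 0.00365). Thus the receptor gene was higher in the cells in which the urokinase gene was lower. Serpinb2, not tested, had 22 reads in the PBS neutrophils and 1 in the PBS macrophages, a ratio of 21.4 per library total (95% exact Clopper-Pearson interval 3.46 to 884, counting error only). Serpinb10, which overlaps it on the same strand, had 109, 115 and 78 reads in the PBS neutrophils and 0, 2 and 0 in the PBS macrophages. The part of Serpinb10 reads in the Serpinb2 ratio was not tested.

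Higher in macrophages were Mmp14, Plau and Mmp19. Mmp14 averaged 70.9 ± 23.1 CPM in PBS macrophages and 3.33 ± 1.43 CPM in PBS neutrophils, a log2 difference of -4.40 for neutrophils against macrophages (SE 0.45, limma-voom adjusted p = 9.35e-09). The differences were -2.09 for Plau (limma-voom adjusted p = 6.47e-06) and -1.64 for Mmp19 (limma-voom adjusted p = 8.43e-08). Timp2 had means of 88.1 ± 12.6 and 91.7 ± 25.4 CPM and a log2 difference of -0.02 (95% interval -0.39 to 0.34, limma-voom adjusted p = 0.912).

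**Figure D3:**
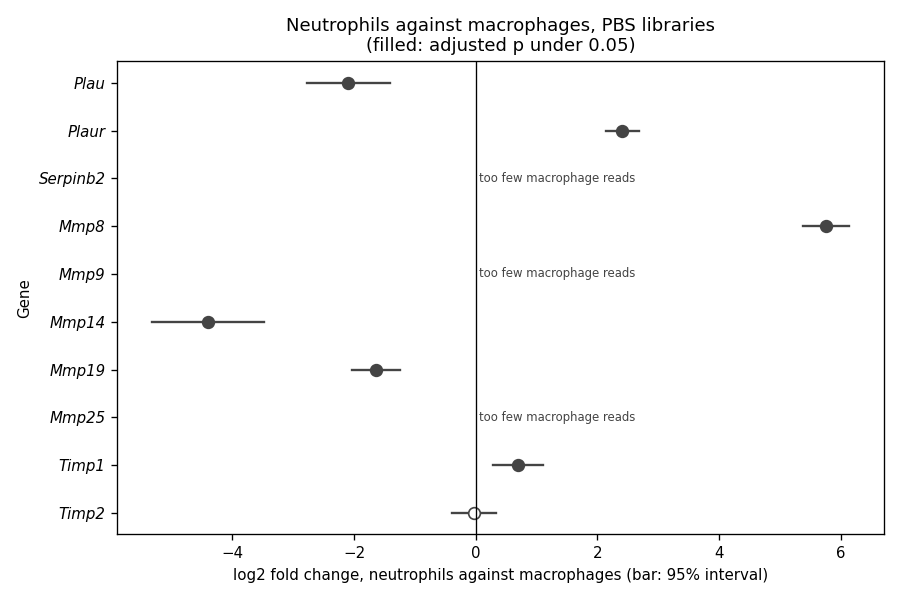
Log2 fold change of neutrophils against macrophages in the PBS libraries (horizontal axis) for the 10 genes (vertical axis; Serpinb2, Mmp9 and Mmp25, with too few macrophage reads, have no point), 3 libraries per group, with 95% intervals of the limma-voom fit and filled points where the adjusted p was under 0.05. Mmp8 lies farthest to the right at 5.76 and Mmp14 farthest to the left at -4.40, and Timp2 at -0.02 is the open point.

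The low levels of neutrophil genes in macrophages were set beside those of other neutrophil markers. Mmp9 in the PBS macrophages was at 0.0994% of its level in the PBS neutrophils. The 14 neutrophil markers other than Mmp8 and Mmp9 ranged from 0.0438% for Camp to 11.9% for the growth factor receptor gene Csf3r, with a median of 0.107% and 0.415% for the second highest, Prtn3. Mmp25 was at 0.752%, from 4 reads, and Mmp8 at 1.90%, from 400 reads. Mmp8 thus stood above all of these markers except Csf3r, and Mmp9 among them. The macrophages were grown from monocytes separated with a monocyte isolation kit. What part neutrophil RNA has in the macrophage values was not tested.

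**Figure D4:**
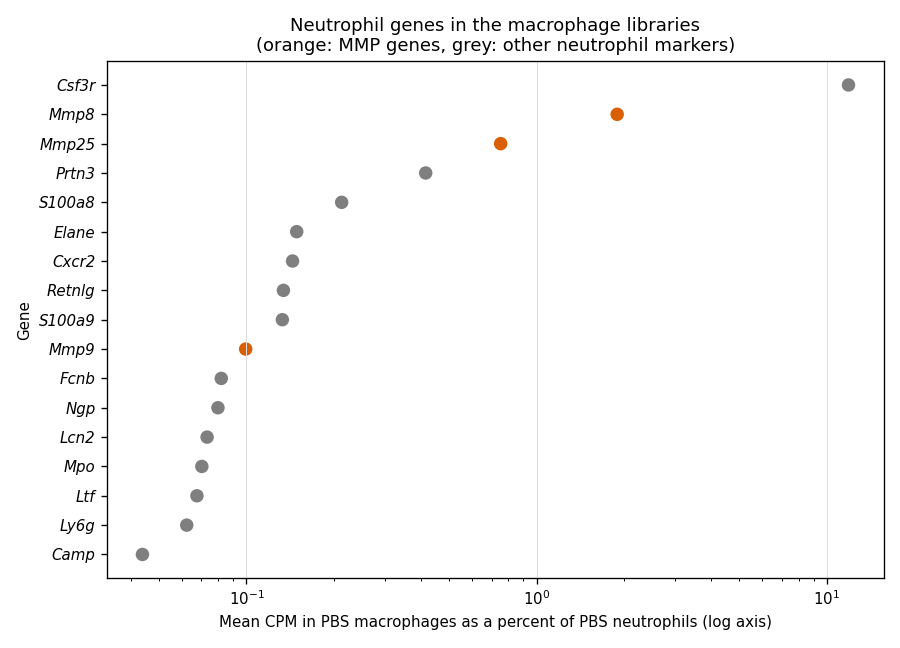
Mean CPM in PBS macrophages as a percent of the mean in PBS neutrophils (log axis, 3 libraries per group) for 3 MMP genes (orange) and 14 other neutrophil markers (grey), ordered by that percent. Mmp9 (0.0994%) lies among the markers, and Mmp8 (1.90%) lies above all but Csf3r (11.9%).

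The reverse check gave 4.71% for Mmp14, 22.2% for Plau and 31.9% for Mmp19, as levels in PBS neutrophils relative to PBS macrophages. The 16 macrophage markers had a median of 8.73% and ranged upwards from 1.24% for C1qc. Lyz2, their most abundant gene, was at 66.6%, and Ly6c2 was higher in neutrophils. The part of macrophage RNA in the neutrophil values of these genes was not tested.

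Related genes were then examined in 4 lists, with 100 genes in all and 90 besides the members. In neutrophils 33 of these 90 were tested, of which 2 rose and 1 fell, where 2.53% of all genes tested passed. In macrophages 34 were tested, of which 1 rose and 2 fell, which is near the 7.43% of all genes tested. The lists were chosen with earlier results of these data known, and their counts are descriptions.

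The plasminogen list held 30 genes. Of 16 tested in neutrophils, 1 rose and 1 fell (median log2 fold change -0.11, against 0.00 for all genes), where 2.53% of all genes tested passed. Plgrkt, a plasminogen receptor, stood at 34.3, 35.7 and 38.5 CPM with PBS and at 63.1, 59.6 and 48.3 CPM with CGRP. Its groups did not overlap, and it rose by 0.67 on the log2 scale (SE 0.14, limma-voom adjusted p = 0.00705). The call was lost without PBS replicate 1 (limma-voom adjusted p = 0.0599) and, barely, without PBS replicate 2 (limma-voom adjusted p = 0.0502). It was also lost in 1 fit of 12 libraries (0.65, limma-voom adjusted p = 0.0627).

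Anxa2, which with S100a10 forms a plasminogen-binding complex at the cell surface, fell in neutrophils. It stood at 1472, 1598 and 1380 CPM with PBS and at 1231, 1102 and 1201 CPM with CGRP, with no overlap. The log2 fold change was -0.33 (SE 0.08, limma-voom adjusted p = 0.0258). The call was lost without PBS replicate 1 (limma-voom adjusted p = 0.142), PBS replicate 2 (limma-voom adjusted p = 0.170) or CGRP replicate 2 (limma-voom adjusted p = 0.113). With all libraries it was lost in edgeR (adjusted p = 0.0576), with the replicate block (limma-voom adjusted p = 0.0547) and in 1 fit of 12 libraries (limma-voom adjusted p = 0.0859).

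Of 17 genes of the plasminogen list tested in macrophages, only Plau passed, where 7.43% of all genes tested passed, and the median was -0.01. The plasminogen gene itself, Plg, had 0 counts in all 12 libraries, below 3 counts in each.

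The MMP list held 23 genes, of which 6 were tested in each cell type. In macrophages 1 rose and 2 fell (median 0.15), where 7.43% of all genes tested passed. In neutrophils 0 passed in limma-voom, edgeR and DESeq2, with 1 at an unadjusted p under 0.05, where 2.53% of all genes tested passed in limma-voom. The genes that fell in macrophages were Mmp12 and Mmp13. Mmp12, the macrophage elastase, stood at 484, 508 and 334 CPM with PBS and at 351, 266 and 266 CPM with CGRP. PBS replicate 3 lay below CGRP replicate 1, so the groups overlapped, and the log2 fold change was -0.57 (SE 0.17, limma-voom adjusted p = 0.0463).

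The Mmp12 call was lost without PBS replicate 1 (limma-voom adjusted p = 0.245), PBS replicate 2 (0.107), CGRP replicate 2 (0.218) or CGRP replicate 3 (0.176). Mmp13, a collagenase, had 38, 20 and 21 reads with PBS and 11, 5 and 5 with CGRP, without overlap. Its log2 fold change was -1.55 (SE 0.43, limma-voom adjusted p = 0.0358). This call held only without PBS replicate 2, and the adjusted p-values without the other 5 libraries ran up to 0.210 (limma-voom). In macrophages, therefore, Mmp19 rose while Plau, Mmp12 and Mmp13 fell, and of the last pair the calls were lost when most single libraries were left out.

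Among the 19 inhibitors and regulators, 0 of 13 tested in neutrophils and 0 of 10 tested in macrophages passed in limma-voom, edgeR or DESeq2. Of all genes tested, 2.53% and 7.43% passed in limma-voom, so counts of 0 among so few genes say nothing about the list. At an unadjusted p under 0.05 there were 0 and 1. That gene was Cd44, a hyaluronan receptor that can hold MMPs at the cell surface. Its log2 fold change in macrophages was 0.45 (limma-voom adjusted p = 0.0729).

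Of the 28 ADAM and ADAMTS protease genes, 1 passed in each cell type, of 7 tested in neutrophils and 8 in macrophages, where 2.53% and 7.43% of all genes tested passed. From so few genes tested, a single call says nothing about the list. It was Adam8, which encodes a membrane-anchored metalloprotease of leukocytes, and it rose in both. In neutrophils it stood at 144, 131 and 161 CPM with PBS and at 223, 235 and 217 CPM with CGRP. The log2 fold change there was 0.64 (SE 0.09, limma-voom adjusted p = 0.000249). In macrophages it stood at 277, 207 and 273 CPM with PBS and at 406, 416 and 452 CPM with CGRP. The log2 fold change there was 0.76 (SE 0.14, limma-voom adjusted p = 0.00238). In neither cell type did the groups overlap, and both calls held when any library was left out.

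**Figure D5:**
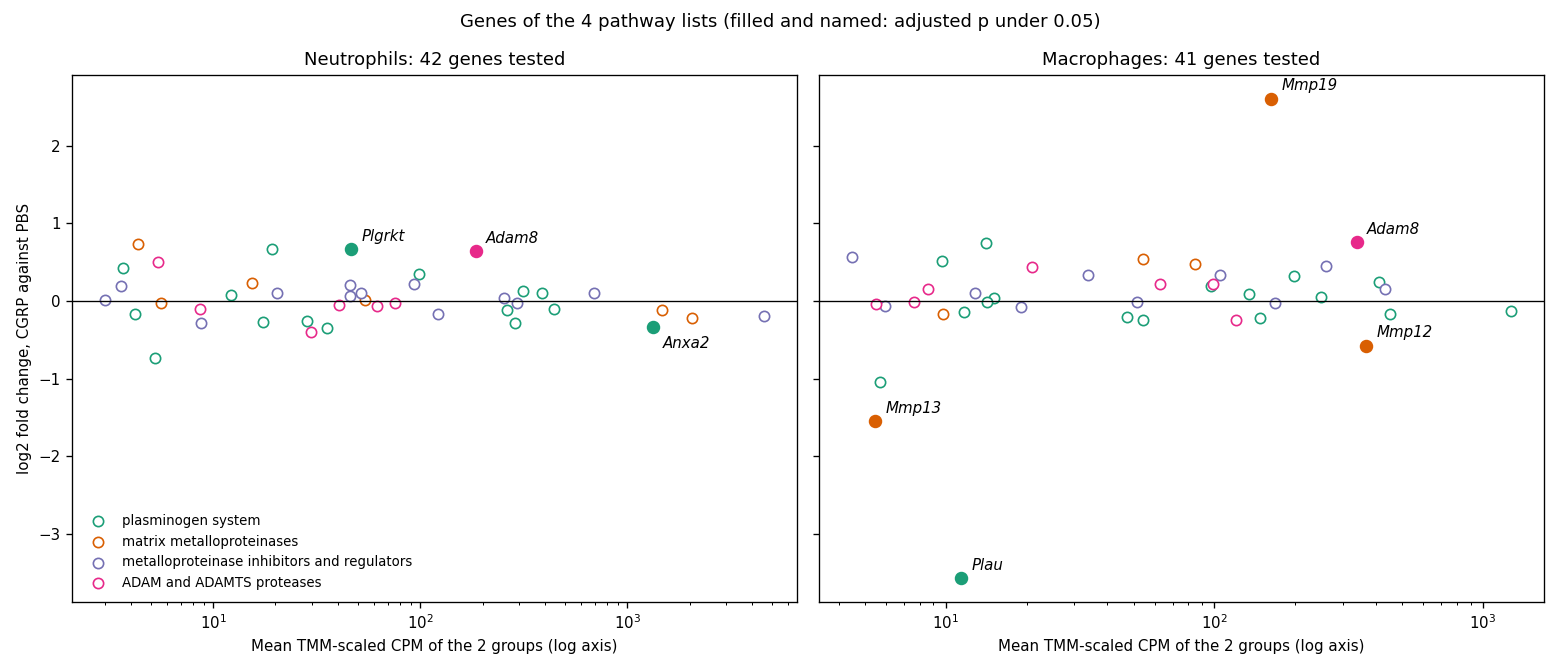
Log2 fold change with CGRP against PBS (vertical axis) against the mean TMM-scaled CPM of both groups (horizontal log axis) for the tested genes of the 4 lists, 42 in neutrophils and 41 in macrophages, coloured by list. Filled, named points passed at an adjusted p under 0.05; Plau (-3.57) and Mmp19 (2.61) lie farthest from 0, and Adam8 is named in both panels.

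The genes whose levels ran most alike to Plau and Mmp19 over the 12 libraries were sought among 10693 others, after log2 CPM were centred within each cell type. For Mmp19 these were the transcription factor gene Nfil3 (Pearson r = 0.988), the aminotransferase gene Got1 (0.988) and the interferon-gamma receptor gene Ifngr1 (0.987). In CGRP macrophages they rose by 2.03, 2.45 and 0.95 on the log2 scale. For Plau they were the chemokine gene Ccl7 (0.961), Arhgef7 (0.952) and Apbb1ip (0.951), with log2 fold changes of -2.12, -0.99 and -1.72 in macrophages. None of the 6 passed in neutrophils in limma-voom. The points share the CGRP contrast, the libraries and their depth, so the coefficients describe likeness of pattern alone.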

How the data were processed

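The authors deposited raw read counts per gene in 1 table for each cell type. Per the labels and the study's methods, RNA was primed with oligo-dT and tagged with unique molecular identifiers, so reads come from transcript 3′ ends. Reads were processed with nf-core/rnaseq 3.2, STAR and featureCounts on GRCm38. The annotation release, the strand setting and any low-count filter are not given in the sources used here.

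Counts were filtered (filterByExpr), TMM-scaled and tested with limma-voom (limma 3.58.1, edgeR 4.0.16, R 4.3.3) within each cell type, with Benjamini-Hochberg adjustment over all genes tested and a threshold of 0.05. The difference between cell types and the PBS contrast came from 1 fit of 12 libraries. edgeR's quasi-likelihood test and DESeq2 1.42.0 were among the alternatives. The fits were tested on simulated counts, where the test of a difference between cell types had less power than the tests within a cell type. No libraries were identical.

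The members and lists were chosen with earlier results of these data known. Genes were named if they were members, passed in either cell type among the 4 lists, overlapped a member, led a marker list or were at 0 in it, or were the 3 most like Plau or Mmp19. Others named (Plg, Cd44, Csf3r, Prtn3, Camp, Cxcr2, Ly6g, C1qc, Ly6c2, Apoe, Cd4) were chosen after their values were seen. Gene positions and sequences came from GENCODE M21, in which 52403 of the 52636 identifiers were found.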

Additional observations from a re-analysis of the deposited data

Results flagged for a closer look

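For 2 genes the response to CGRP differed between the cell types by a test of the difference itself, in the limma-voom fit of all 12 libraries. The change of Plau in macrophages minus that in neutrophils was -3.39 on the log2 scale (limma-voom adjusted p = 0.00304), with all 3 CGRP macrophage libraries below the PBS libraries and overlapping groups in neutrophils. The change of Mmp19 in macrophages minus that in neutrophils was 2.39 (limma-voom adjusted p = 3.86e-06), with non-overlapping groups in the same direction in both cell types. Both differences passed in all 12 fits that left out 1 library. Cell type, medium and time in culture cannot be told apart in these differences.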

How the results depend on the processing

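The macrophage calls of Plau and Mmp19 held under every alternative that tested them and without any library. Plau ran from -3.61 to -3.39 on the log2 scale, and from -4.10 to -3.17 with 1 library left out; it was not tested where at least 10 counts in every library were required. Mmp19 ran from 2.55 to 2.71, and from 2.53 to 2.71 with 1 library left out. The differences between cell types held likewise, from -3.92 to -2.96 for Plau and from 2.28 to 2.49 for Mmp19 with 1 library left out.

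The number of members passing moved elsewhere. In neutrophils it was 1 (Mmp8) with no filter on low counts. In macrophages it was 1 with the filter of 10 counts, as Plau dropped out, and 2 to 4 with 1 library left out. It was 5 with quality weights (adding Mmp8, Mmp14 and Timp2), where 1406 of 9393 genes passed, against 698. For the difference between cell types it was 1 with the filter of 10 counts and 2 to 3 with 1 library left out. For PBS neutrophils against PBS macrophages it was 8, where 67.9% of all genes passed, and 8 in each fit with 1 library left out. These 8 hold Mmp9 and Mmp25, which entered only through neutrophil reads and are not taken as results. It was 4 with the filter of 10 counts, as fewer genes were tested, and 4897 of 7308 genes passed there. With no filter it was 9, where 8414 of 22075 genes passed. Serpinb2 was then also tested and passed on 1 read in the PBS macrophages (3.49, limma-voom adjusted p = 7.87e-06).

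The other genes of the 4 lists passing numbered 3 in each cell type. In neutrophils they numbered 5 with no filter, 1 in 1 fit of 12 libraries, 1 without PBS replicate 1 or PBS replicate 2, and 1 to 4 over all fits with 1 library left out. In macrophages they numbered 5 with quality weights and in 1 fit of 12 libraries, 1 without PBS replicate 1, CGRP replicate 2 or CGRP replicate 3, and 1 to 3 over all fits with 1 library left out.

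Directions turned only where the log2 value was near 0 or its error wide, and none of these values passed. In neutrophils Plau ran from -0.33 to 0.0088 and Mmp25 from -0.042 to 0.049 with 1 library left out, and Mmp12 was 0.0070 in edgeR, 0.018 in DESeq2, 0.051 with library totals alone, 0.025 with the replicate block and -0.39 to 0.44 with 1 library left out. In macrophages Plgrkt ran from -0.025 to 0.22 with 1 library left out. For the difference between cell types, Mmp25 was -0.096 with library totals alone, -0.48 with quality weights and -0.52 to 0.78 with 1 library left out. Timp1 was -0.10 with library totals alone, -0.0057 with no filter, -0.0011 with the filter of 10 counts and -0.13 to 0.11 with 1 library left out. With 1 library left out, Mmp14 ran from -0.55 to 0.12, Timp2 from -0.079 to 0.33 and Adam8 from -0.0046 to 0.20. In the PBS contrast, Timp2 was 0.017 with the filter of 10 counts, 0.11 with quality weights and -0.21 to 0.17 with 1 library left out. The causes were not tested.

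Replicate numbers were not taken to pair the samples: same-numbered libraries correlated at -0.013 to 0.14 (neutrophils) and -0.18 to 0.27 (macrophages), and 2 of 3 PBS libraries in each cell type correlated best with their own number. With the replicate block, Mmp8 passed in macrophages (0.57, limma-voom adjusted p = 0.0354) and in the difference between cell types (0.80, limma-voom adjusted p = 0.0308), Anxa2 no longer passed in neutrophils (limma-voom adjusted p = 0.0547), and the calls over all genes numbered 254 in neutrophils and 905 in macrophages.

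Calls over all genes in neutrophils numbered 248, against 137 in 1 fit of 12 libraries and 138 without PBS replicate 1 or PBS replicate 2 and 153 without CGRP replicate 2. In macrophages they numbered 698, against 1406 with quality weights, 1050 in 1 fit of 12 libraries, 347 without PBS replicate 1, 348 without CGRP replicate 2 and 439 without CGRP replicate 3. For the difference they numbered 252, against 520 with quality weights and 149 without macrophage PBS replicate 1. With library totals alone, 150 genes rose and 64 fell in neutrophils (148 and 100 with TMM), 245 rose and 405 fell in macrophages (325 and 373), and the difference gave 88 and 154 (129 and 123), with its median over all genes moving from 0.02 to -0.098. Few reads limit Plau in CGRP macrophages (14 reads), Mmp9 and Mmp25 in macrophages, Plau and Mmp14 in neutrophils, and Serpinb2 in both cell types.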
